A study of Mus musculus with 13 samples.

Results

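Collagen chains were the genes examined here: gene symbols of the form Col, a number, a and a number with at least 10 counts in at least 2 libraries. The rule kept 37 of the 43 collagen symbols listed, out of 27141 genes in the count table, and all 37 entered the test across all genes. They comprised 10 fibrillar chains, 6 basement membrane chains and 21 other chains. The other chains were split into 6 of the beaded filaments, 7 fibril-associated chains (FACIT), 2 network chains, 2 multiplexins and 4 remaining ones. The members nearest the border were Col9a2 and Col22a1, each with at least 10 counts in 5 libraries, and Col24a1 and Col26a1, with 6 libraries each. Just outside it, Col2a1, Col10a1, Col13a1 and Col17a1 reached 10 counts in 1 library each, and Col9a1 and Col25a1 in none.

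RNA-seq was performed on damaged hepatocytes (dHeps), which are cells that the labels call hepatocytes and that were isolated by collagenase perfusion from livers of wild-type mice injured with CCl4. All groups shared this injury, a serum-free hepatocyte maintenance medium and 16 days of culture, on plates coated with rat tail collagen. One group received DMSO, the solvent. The 5C group received 5 compounds together: forskolin (letter F), an activator of adenylate cyclase, Salidroside (S), a glycoside from Rhodiola, ETC-1002 (E), which activates AMPK, CID755673 (C), which inhibits protein kinase D, and GSK429286A (G), which inhibits ROCK. A removal group, such as 5C-F, received 5C without the compound whose letter follows the hyphen, and each of the 5 compounds was removed in turn. There were 13 libraries: 2 in each group, called A and B in column order with no pairing across groups, and 1 for 5C-S. The study's methods call its replicates separate biological ones, but neither they nor the labels say whether the libraries of a group came from separate animals or cultures, so p-values measure the spread between these libraries.

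A collagen molecule is a triple helix of 3 α chains, each encoded by its own gene. Fibrillar collagens form the banded fibres of scar tissue, type IV collagen forms the sheet of the basement membrane, type VI forms beaded filaments, and FACIT collagens sit on the surface of fibrils. In the injured liver, stellate cells and fibroblasts are known as the main source of fibrillar collagen, and its accumulation is the hallmark of fibrosis. In bulk RNA, fewer cells of a type and less RNA per cell cannot be told apart.

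Promoters of 4 members are shown, because these chains carry the contrasts described below: Col1a2 and Col3a1 for the fibrillar chains that were low without forskolin, Col4a1 for the head-to-head type IV pair, and Col8a1 for the chain that fell most without CID755673. The sequences are from RefSeq (table build GRCm38.p6) and were placed on GRCm39 by exact match. Each runs 5′ to 3′ over 280 bases, from 250 bases before the start of transcription. Capitals mark matches to the CCAAT motif, the TATAAA motif and the GGGCGG motif, each searched on both strands, and no matches overlap each other in these promoters. The Col1a2 promoter lies at chr6:4505368-4505647 (plus strand), the Col3a1 promoter at chr1:45350448-45350727 (plus strand), the Col4a1 promoter at chr8:11362797-11363076 (minus strand) and the Col8a1 promoter at chr16:57575071-57575350 (minus strand).
Col1a2: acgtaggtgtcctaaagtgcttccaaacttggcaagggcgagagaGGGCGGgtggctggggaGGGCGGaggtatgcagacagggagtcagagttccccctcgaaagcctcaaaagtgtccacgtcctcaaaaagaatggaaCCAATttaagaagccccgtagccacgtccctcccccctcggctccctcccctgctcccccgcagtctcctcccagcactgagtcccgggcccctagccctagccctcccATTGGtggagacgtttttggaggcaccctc
Col3a1: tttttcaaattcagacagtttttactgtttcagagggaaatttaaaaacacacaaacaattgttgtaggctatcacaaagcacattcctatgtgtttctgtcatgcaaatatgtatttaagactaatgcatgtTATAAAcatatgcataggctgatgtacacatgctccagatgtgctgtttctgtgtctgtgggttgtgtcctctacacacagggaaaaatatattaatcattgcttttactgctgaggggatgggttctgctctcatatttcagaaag
Col4a1: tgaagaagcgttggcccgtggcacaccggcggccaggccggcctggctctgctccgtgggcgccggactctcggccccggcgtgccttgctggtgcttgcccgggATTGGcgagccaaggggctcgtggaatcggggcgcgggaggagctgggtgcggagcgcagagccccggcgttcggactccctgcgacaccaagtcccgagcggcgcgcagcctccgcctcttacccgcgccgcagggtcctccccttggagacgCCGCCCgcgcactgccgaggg
Col8a1: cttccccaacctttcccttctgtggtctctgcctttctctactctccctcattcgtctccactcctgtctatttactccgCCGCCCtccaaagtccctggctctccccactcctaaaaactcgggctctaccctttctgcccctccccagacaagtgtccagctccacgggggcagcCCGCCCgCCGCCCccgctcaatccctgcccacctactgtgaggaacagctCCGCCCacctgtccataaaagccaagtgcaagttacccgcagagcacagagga

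The Col1a2 window held CCAAT 2 times and GGGCGG 2 times, the Col3a1 window held TATAAA 1 time, the Col4a1 window held CCAAT 1 time and GGGCGG 1 time, and the Col8a1 window held GGGCGG 4 times. The 4 windows differed in base composition, from 36.1% GC in Col3a1 to 74.6% in Col4a1. Col4a1 and Col4a2 start 21 bases apart on opposite strands of chromosome 8. Promoters of 34 collagen genes were in the RefSeq table. GGGCGG was present in 22 of these 34 windows (64.7%) against 34.7% of all 32851 promoters of this length, CCAAT in 12 (35.3%) against 36.1%, and TATAAA in 5 (14.7%) against 13.1%. A match is a description of the letters only.

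Total counts ran from 30195867 to 45491932 per library. Pairs of libraries differed by more than counting noise, with a chi-square per degree of freedom over all genes of 8.01 in DMSO, 14.1 in 5C and 28.9 to 86.6 in the other groups. Over the collagen chains it was 28.7 in DMSO, 30 in 5C and 121 to 427 in the other groups. Levels followed GC content differently between libraries: the Spearman rho across genes of each library's deviation from the gene mean with GC content ran from −0.43 in 5C A to 0.394 in 5C-C B, and was −0.222 and 0.107 in 5C-E and −0.230 and 0.201 in 5C-F. GC content of the chains ran from 46.75% in Col8a1 to 62.74% in Col11a2. A simulation at this depth gave every gene the same spread and scored recovery by adjusted p, without the fold threshold. It recovered 72 of 100 genes changed 4-fold and 8 of 100 changed 2-fold for 5C against DMSO. At that spread, changes near the 2-fold threshold used for a call are thus often not detectable with 2 libraries. Single chains were still called near it, such as Col6a1 in 5C-F against 5C (log2 fold change −1.02). The simulation therefore does not give the power for each chain.

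Levels of the chains were compared as FPKM, which is scaled to gene length. Mean FPKM over all libraries was above 100 for 6 chains, 10 to 100 for 8, 1 to 10 for another 8 and below 1 for 15. The 6 most abundant were Col1a1 (555), Col3a1 (295), Col6a1 (252), Col4a1 (213), Col4a2 (118) and Col5a2 (104). Defining liver markers were present, with Alb and the other 7 hepatocyte markers summing to between 3290 and 22300 FPKM per library.

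The share of all counts that fell on the 37 chains was 1.20% and 1.18% in DMSO, 1.27% and 1.31% in 5C, 1.39% and 1.37% in 5C-G, 1.62% and 1.40% in 5C-C, 1.89% and 2.18% in 5C-E, 0.766% and 0.846% in 5C-F, and 1.54% in the 5C-S library. The 5C-E libraries were the highest and the 5C-F libraries the lowest of all 13, and neither group overlapped any other. Shares are given as a description, without a test, because the chains were chosen with earlier results known. Fibrillar chains took 0.607% and 0.626% of all counts in DMSO, 0.726% and 0.731% in 5C, 1.19% and 1.40% in 5C-E and 0.408% and 0.423% in 5C-F. Basement membrane chains took 0.340% and 0.325% in DMSO, 0.257% and 0.279% in 5C, 0.281% and 0.340% in 5C-E, 0.188% and 0.224% in 5C-F, and 0.193% and 0.166% in 5C-C. Both classes were thus lower in 5C-F than in 5C, and the fibrillar share was higher in 5C-E. The basement membrane share of 5C-E lay only just above that of 5C, at 0.281% beside 0.279% for the nearest libraries. In 5C-C the basement membrane share was low, overlapping 5C-F, and the fibrillar share was high, at 1.11% and 0.952%. Within the collagen counts, the fibrillar part was 50.5% and 52.8% in DMSO and 68.4% and 68.1% in 5C-C.

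**Figure D1:**
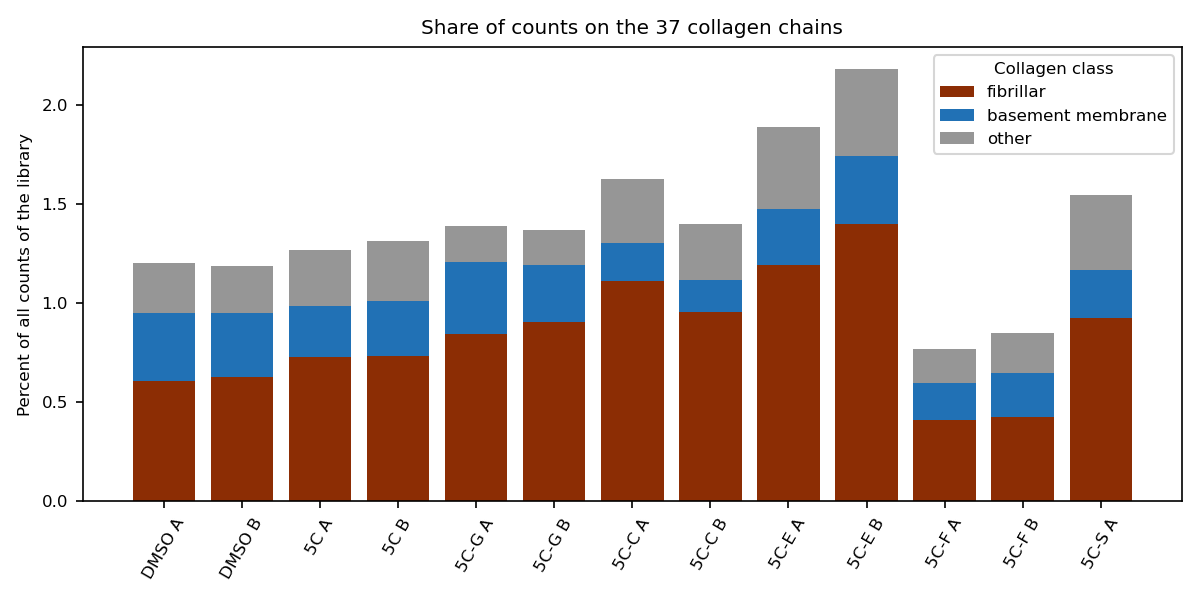
Percent of all counts of each library (vertical axis) that fell on fibrillar, basement membrane and other collagen chains, stacked, for 13 libraries (horizontal axis). The 5C-E libraries reach 1.89% and 2.18% and the 5C-F libraries 0.766% and 0.846%.

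Among the fibrillar chains, Col1a1 encodes the α1 chain of type I collagen (chromosome 11, 94827050 to 94843868, plus strand, GRCm39). Its FPKM was 383 and 400 in DMSO, 448 and 467 in 5C, 547 and 727 in 5C-G, 779 and 647 in 5C-C, 706 and 870 in 5C-E, 298 and 320 in 5C-F, and 623 in 5C-S. The 5C-F libraries lay below all others. Its partner Col1a2, the α2 chain (chromosome 6, 4504814 to 4541555, plus strand), had 32.3 and 28.7 FPKM in DMSO, 30.9 and 35.2 in 5C, 21.7 and 11.3 in 5C-G, 23.7 and 6.82 in 5C-C, 48.0 and 51.5 in 5C-E, 10.5 and 10.5 in 5C-F, and 29.9 in 5C-S. The libraries of 5C-G and of 5C-C were far apart for this chain, 5C-E was the highest group, and 5C-C B lay below both 5C-F libraries. Col1a2 has an annotated non-coding gene on the opposite strand over 1167 bases of exon, and whether the counts used strand is not given in the sources used here.

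Col3a1 encodes type III collagen, which is laid down with type I (chromosome 1, 45350698 to 45395840, plus strand). It had 174 and 181 FPKM in DMSO, 246 and 240 in 5C, 287 and 288 in 5C-G, 453 and 405 in 5C-C, 458 and 531 in 5C-E, 127 and 117 in 5C-F, and 333 in 5C-S. The 5C-E libraries were the highest and the 5C-F libraries the lowest, and 5C-C lay just below 5C-E without overlap. Col5a1, a chain of the type V collagen that sets fibril width (chromosome 2, 27776397 to 27929526, plus strand), had 28.7 and 27.8 FPKM in DMSO, 31.2 and 29.8 in 5C, 46.1 and 38.6 in 5C-G, 42.7 and 39.7 in 5C-C, 62.6 and 80.5 in 5C-E, 15.9 and 20.3 in 5C-F, and 40.8 in 5C-S. Its partner Col5a2 (chromosome 1, 45412554 to 45542442, minus strand) had 110 and 115 FPKM in DMSO, 116 and 111 in 5C, 124 and 89.7 in 5C-G, 78.6 and 79.8 in 5C-C, 152 and 159 in 5C-E, 55.2 and 59.0 in 5C-F, and 107 in 5C-S. Both type V chains were highest in 5C-E and lowest in 5C-F. Of the 10 fibrillar chains, 9 had their highest group mean in 5C-E and 8 their lowest in 5C-F, counted over the 6 groups with 2 libraries. These counts include chains with few reads, such as Col24a1 with at most 28 counts in a library. They were not made over all genes, so they only describe these chains.

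Of the basement membrane chains, Col4a1 and Col4a2 make the common type IV molecule. Col4a1 (chromosome 8, 11248423 to 11362826, minus strand) had 281 and 267 FPKM in DMSO, 204 and 228 in 5C, 289 and 226 in 5C-G, 145 and 122 in 5C-C, 214 and 261 in 5C-E, 161 and 183 in 5C-F, and 189 in 5C-S. Col4a2 (chromosome 8, 11362471 to 11499287, plus strand) had 136 and 134 FPKM in DMSO, 104 and 110 in 5C, 168 and 148 in 5C-G, 95.0 and 91.5 in 5C-C, 118 and 146 in 5C-E, 77.2 and 105 in 5C-F, and 105 in 5C-S. The spans of these genes overlap on opposite strands, with 311 bases of shared exon. The highest group mean was 2.05 times the lowest for Col4a1 and 1.73 times for Col4a2. The other basement membrane chains ranged more widely, at 2.58 times for Col4a5 and 3.53 times for Col4a6. For those below 1 FPKM it was 2.84 times for Col4a4 and 6.55 times for Col4a3. Over the fibrillar chains with a mean of at least 1 FPKM this ratio ran from 2.50 for Col27a1 to 4.72 for Col1a2, and for those below 1 FPKM it was 1.75 for Col11a2, 3.84 for Col5a3 and 23.0 for Col24a1.

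Type VI collagen forms beaded filaments from α1, α2 and α3 chains. Col6a1 (chromosome 10, 76543440 to 76562283, minus strand) had 211 and 190 FPKM in DMSO, 265 and 289 in 5C, 137 and 130 in 5C-G, 308 and 250 in 5C-C, 431 and 427 in 5C-E, 120 and 135 in 5C-F, and 388 in 5C-S. Col6a2 (chromosome 10, 76429660 to 76459549, minus strand) had 66.4 and 56.8 FPKM in DMSO, 85.2 and 91.2 in 5C, 46.9 and 59.1 in 5C-G, 142 and 130 in 5C-C, 146 and 161 in 5C-E, 39.8 and 51.6 in 5C-F, and 139 in 5C-S. These neighbouring genes were both lowest in 5C-F, where their ranges overlapped those of 5C-G. Col6a3 (chromosome 1, 90693645 to 90771780, minus strand) had another order, with 5.42 and 4.57 FPKM in DMSO, 8.17 and 8.45 in 5C, 5.95 and 4.39 in 5C-G, 2.42 and 1.88 in 5C-C, 8.32 and 6.76 in 5C-E, 7.27 and 8.05 in 5C-F, and 8.19 in 5C-S. It was lowest in 5C-C, and 5C-E overlapped both 5C and 5C-F.

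Col8a1, a chain of the type VIII network collagen of vessel walls and corneal membranes (chromosome 16, 57444621 to 57575100, minus strand), had the widest range of the members with a mean of at least 1 FPKM. It had 38.6 and 38.0 FPKM in DMSO, 20.3 and 21.1 in 5C, 10.3 and 4.84 in 5C-G, 1.03 and 1.00 in 5C-C, 9.39 and 8.37 in 5C-E, 27.4 and 23.0 in 5C-F, and 9.05 in 5C-S. The DMSO mean was 37.8 times the 5C-C mean. Col14a1, a FACIT collagen (chromosome 15, 55171140 to 55384199, plus strand), had 8.25 and 6.96 FPKM in DMSO, 2.42 and 2.95 in 5C, 4.56 and 4.73 in 5C-G, 0.448 and 0.616 in 5C-C, 1.39 and 1.32 in 5C-E, 3.38 and 3.96 in 5C-F, and 2.39 in 5C-S. For both chains DMSO was the highest group and 5C-C the lowest, with no overlap between either and any other group.

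The multiplexins Col15a1 and Col18a1 are found at basement membranes, and the end of Col18a1 is cleaved to endostatin. Col15a1 (chromosome 4, 47207582 to 47313179, plus strand) had 1.28 and 1.25 FPKM in DMSO, 3.92 and 3.71 in 5C, 6.81 and 6.51 in 5C-G, 4.47 and 4.58 in 5C-C, 6.85 and 10.9 in 5C-E, 2.95 and 3.08 in 5C-F, and 4.92 in 5C-S. The DMSO libraries were the lowest. Col18a1 (chromosome 10, 76888012 to 77002390, minus strand) had 32.6 and 30.2 FPKM in DMSO, 29.5 and 30.6 in 5C, 15.9 and 15.1 in 5C-G, 26.2 and 23.2 in 5C-C, 21.9 and 28.4 in 5C-E, 35.1 and 50.0 in 5C-F, and 31.0 in 5C-S. Col18a1 was highest without forskolin and lowest without GSK429286A, and its exons overlap those of Slc19a1 on the opposite strand over 896 bases.

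**Figure D2:**
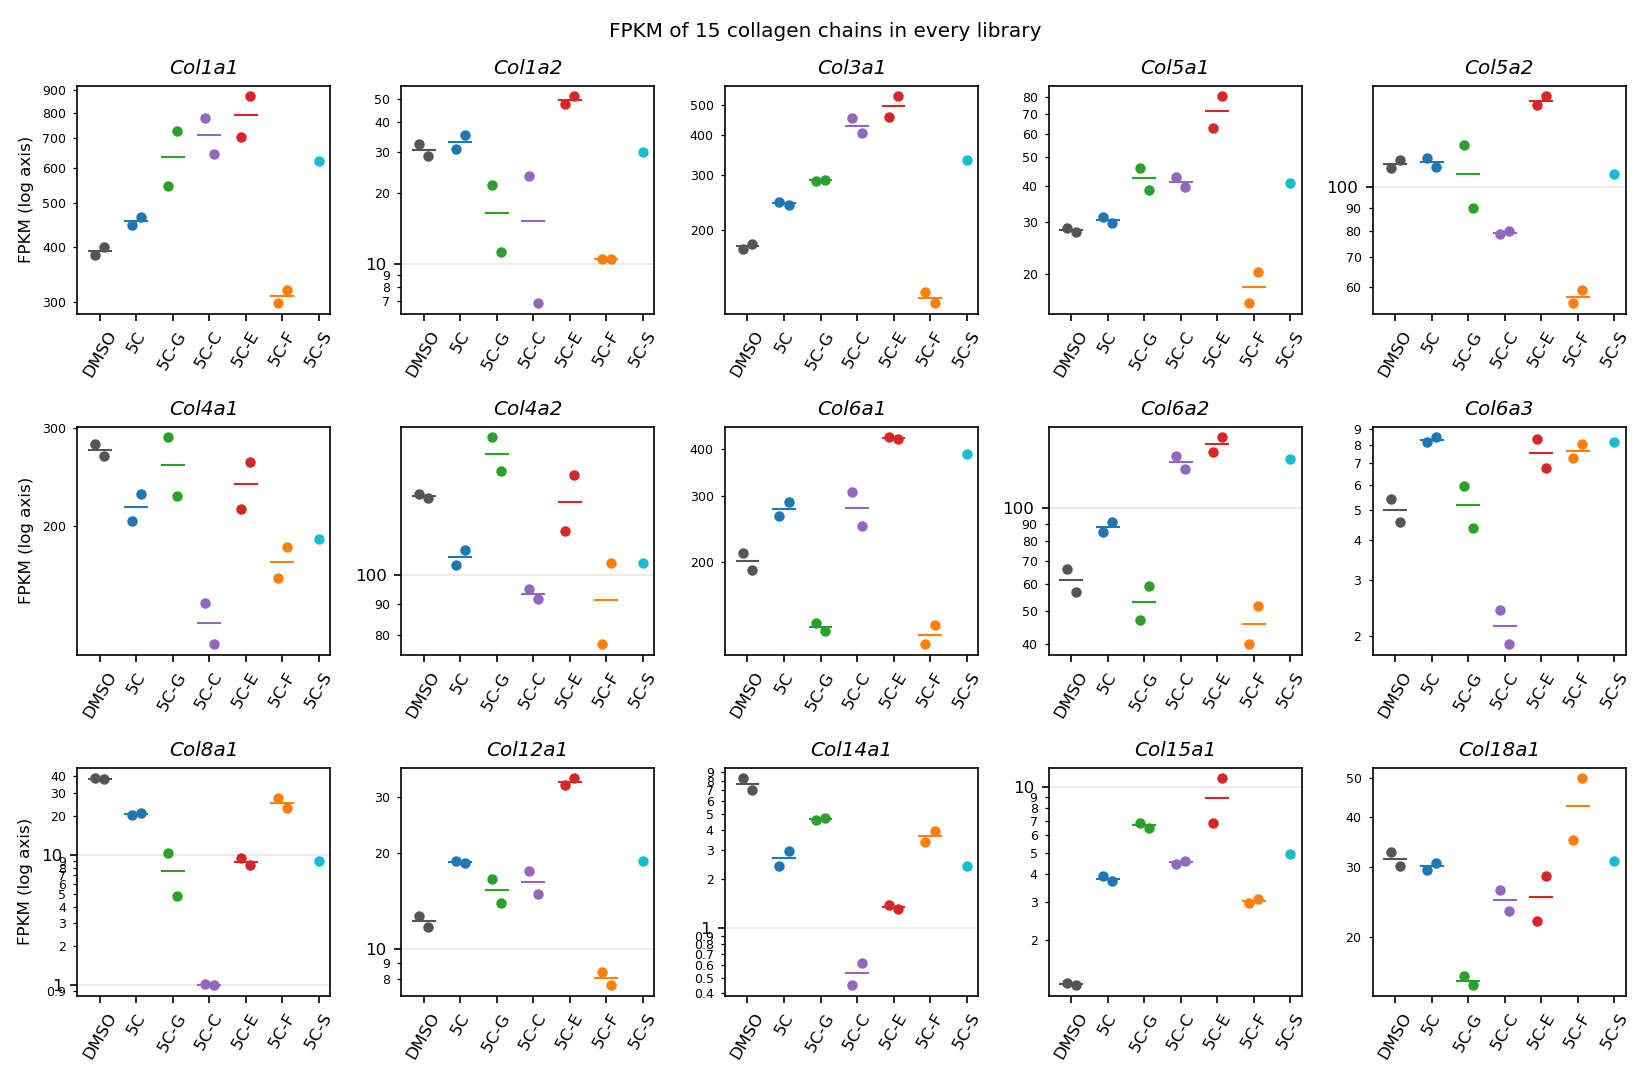
FPKM (vertical axes, logarithmic) of 15 collagen chains in each of 13 libraries, by group (horizontal axes); points are libraries and lines are group means. Col1a2, Col3a1, Col5a1, Col5a2 and Col12a1 are highest in 5C-E and lowest or joint lowest in 5C-F, whereas Col8a1 and Col14a1 are lowest in 5C-C.

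With all 5 compounds present, 1 chain rose and 1 fell against the solvent. Of 37 chains, 2 were called (5.41%) at an edgeR adjusted p under 0.05 and a log2 fold change beyond 1, against 4.55% of the 19884 genes tested (1.66% higher and 2.89% lower), so the share of chains called was near that of all genes. An unadjusted p under 0.05 was reached by 14 of the 37 chains (37.8%), against 17.2% of all genes. Col14a1 fell, from 7.60 ± 0.908 FPKM to 2.69 ± 0.375 FPKM (SD, n = 2; log2 fold change −1.57 ± 0.22 SE, edgeR adjusted p = 0.000115). Col15a1 rose, from 1.27 ± 0.0210 FPKM to 3.81 ± 0.146 FPKM (log2 fold change 1.51 ± 0.22, edgeR adjusted p = 0.000166). Type I collagen did not pass, with log2 fold changes of 0.15 ± 0.18 for Col1a1 and 0.04 ± 0.35 for Col1a2. The median log2 fold change was 0.04 for fibrillar, −0.28 for basement membrane and −0.05 for other chains, beside 0.01 for all genes. Col8a1 had −0.96 ± 0.23, just short of the fold threshold, and was called lower with an offset per library for GC and length (−1.05, adjusted p = 0.000568).

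In 5C-F, which lacked forskolin, 4 chains fell. Of the 37 chains 4 were called, all lower in 5C-F than in 5C (10.8%), against 4.84% of all genes (2.69% higher and 2.15% lower). Of all 37 log2 fold changes, 7 were above 0. Col1a2 fell from 33.1 ± 3.05 FPKM to 10.5 ± 0.0307 FPKM (log2 fold change −1.55 ± 0.36, edgeR adjusted p = 0.0135), Col8a2, the second type VIII chain, by −1.24 ± 0.24 (adjusted p = 0.00434), the FACIT chain Col12a1 by −1.12 ± 0.16 (adjusted p = 0.000606) and Col6a1 by −1.02 ± 0.16 (adjusted p = 0.000936). Below the fold threshold, Col3a1 and Col5a2 each had −0.89 ± 0.15 (adjusted p = 0.00189 and 0.00205), Col4a6 −0.97 ± 0.21 (adjusted p = 0.00806) and Col4a5 −0.96 ± 0.22 (adjusted p = 0.0119). At a lower threshold of 0.5 on the log2 scale 11 chains passed (29.7%), against 10.7% of all genes. The median was −0.58 for the 10 fibrillar chains, −0.85 for basement membrane and −0.22 for other chains, beside −0.01 for all genes. All 10 fibrillar log2 fold changes were below 0 with edgeR, and 9 of 10 with DESeq2. Under the GC and length offset 3 chains were called, 11 of 37 were above 0, and Col12a1 lost its call. The median of other chains turned to 0.01, beside 0.09 for all genes. Leaving out 5C B left 1 chain called and leaving out 5C-F A left 2, and Col1a2 lost its call when any of the 4 libraries was left out, at log2 fold changes between −1.66 and −1.43.

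Leaving out ETC-1002 gave log2 fold changes above 0 for all 10 fibrillar chains. Of the 37 chains 4 were called in 5C-E against 5C (10.8%), against 1.96% of all genes (0.654% higher and 1.31% lower). Col5a1 rose from 30.5 ± 1.01 FPKM to 71.6 ± 12.7 FPKM (log2 fold change 1.16 ± 0.17, edgeR adjusted p = 0.000608) and Col15a1 by 1.15 ± 0.21 (adjusted p = 0.00468). Col8a1 fell by −1.29 ± 0.23 (adjusted p = 0.00367) and Col14a1 by −1.06 ± 0.22 (adjusted p = 0.0124). Col3a1 had 0.96 ± 0.15 (adjusted p = 0.00125) and Col1a1 0.71 ± 0.18 (adjusted p = 0.0411), short of the fold threshold. The median was 0.68 for fibrillar, 0.15 for basement membrane and 0.49 for other chains, beside 0.01 for all genes. Once GC and length were adjusted for by an offset per library, 2 chains were called, and Col5a1 (0.68) and Col15a1 (0.75) lost their calls. The fibrillar median was then 0.28 and the basement membrane median turned to −0.33, beside −0.07 for all genes. Col14a1 lost its call with total counts only, in all 3 limma settings, and without 5C B (−0.86), 5C-E A (−1.06) or 5C-E B (−1.02). Col15a1 also lost its call without 5C A. Without 5C B 1 chain was called. Without 5C-E B none was by edgeR, when 11 had an unadjusted p under 0.05 (29.7%), against 6.35% of all genes.

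The fold change between 5C-E and 5C-F does not use the 5C libraries, although the spread behind its SE and p was estimated over all 13 libraries. The comparison gave the most calls of the 12 comparisons counted here: 16 of 37 chains (43.2%), 14 higher and 2 lower in 5C-E, against 8.74% of all genes (4.29% higher and 4.45% lower). Fibrillar chains accounted for 7 of the calls, all higher in 5C-E, of 10 tested. The 5 largest rises were in Col1a2 (log2 fold change 2.07 ± 0.37, edgeR adjusted p = 0.000885), Col12a1 (1.88 ± 0.16, adjusted p = 1.05e-06), Col3a1 (1.85 ± 0.15, adjusted p = 7.67e-07), Col5a1 (1.82 ± 0.17, adjusted p = 2.3e-06) and Col8a2 (1.73 ± 0.24, adjusted p = 9.52e-05). The type IV chains Col4a5 and Col4a6 were called, at 1.20 ± 0.22 and 1.66 ± 0.21, and Col4a1 and Col4a2 were not, at 0.30 ± 0.16 and 0.37 ± 0.17. The 2 chains that were lower in 5C-E were Col8a1 (−1.68 ± 0.23, adjusted p = 9.75e-05) and Col14a1 (−1.60 ± 0.22, adjusted p = 0.0001). The median was 1.38 for fibrillar, 0.78 for basement membrane and 0.44 for other chains, beside 0.01 for all genes. This pair of groups was chosen after the levels had been seen. Leaving out any of the 4 libraries gave 15 or 16 calls. With the GC and length offset there were 11 calls, of which 10 were among the 16, and fibrillar calls fell from 7 to 3. Under the offset, 5C-C against 5C-F had 11 calls as well, so the 2 comparisons tied for the most. In 5C-E against 5C-F the calls lost were Col1a1 (0.64 with the offset), Col5a2, Col5a3, Col27a1, Col4a5 and Col15a1. The median was then 0.86 for fibrillar and 0.18 for basement membrane chains, beside −0.165 for all genes. Of the 6 basement membrane values, 3 were below 0.

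**Figure D3:**
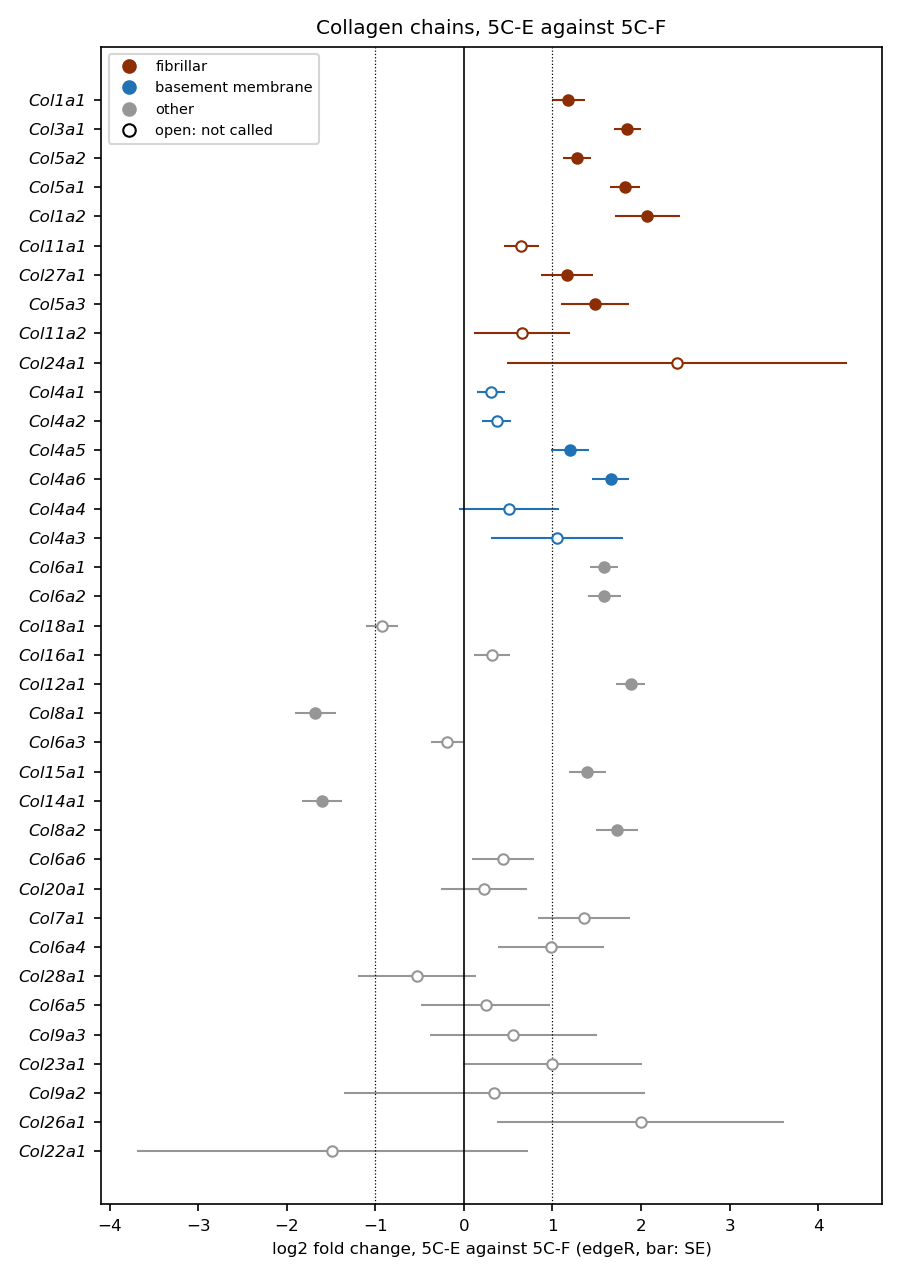
edgeR log2 fold change of each of 37 collagen chains in 5C-E against 5C-F (horizontal axis; bars are SE), coloured by class, with filled points for called chains and dotted lines at a change of 1. Of 10 fibrillar chains 7 are filled and lie to the right, while Col8a1 and Col14a1 lie to the left.

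Set against 5C-F in the same way, 5C-C had 12 of 37 chains called (32.4%), 8 higher and 4 lower, against 10.2% of all genes (4.92% higher and 5.26% lower). The largest rises were Col5a3 (2.02 ± 0.39), Col3a1 (1.88 ± 0.15), Col6a2 (1.65 ± 0.19), Col1a1 (1.27 ± 0.18) and Col5a1 (1.26 ± 0.17), and the falls were Col8a1 (−4.57 ± 0.27), Col14a1 (−2.70 ± 0.23), Col6a3 (−1.77 ± 0.19) and Col6a6 (−1.43 ± 0.37). 5C-G had 10 chains called (27.0%), 7 higher and 3 lower, against 8.03% of all genes (3.76% higher and 4.27% lower). The rises were Col5a3 (1.37 ± 0.39), Col3a1 (1.27 ± 0.15), Col5a1 (1.26 ± 0.17), Col15a1 (1.18 ± 0.21), Col4a6 (1.12 ± 0.21), Col1a1 (1.09 ± 0.18) and Col8a2 (1.07 ± 0.24), and the falls were Col6a5 (−2.86 ± 0.84), Col8a1 (−1.73 ± 0.23) and Col18a1 (−1.42 ± 0.18). Adjusted by the GC and length offset, Col6a1 was no longer called for 5C-C, nor Col1a1 and Col8a2 for 5C-G. For 5C-G, Col8a2 lost its call in 7 of the alternatives, Col6a5 in 5, Col5a3 in 4, Col4a6 in 3 and Col15a1 in 2. Col1a1 also lost it without 5C-G B. For 5C-C, Col6a6 lost its call in 4 of the alternatives and Col5a3 in 1. These 3 contrasts share the 5C-F libraries.

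Among the chains called against 5C, the largest change was the fall of Col8a1 when CID755673 was left out. In 5C-C against 5C 7 of 37 chains were called (18.9%), 1 higher and 6 lower, against 20.2% of all genes (9.65% higher and 10.5% lower), so the share of chains called was close to that of all genes. Col8a1 fell from 20.7 ± 0.559 FPKM to 1.01 ± 0.0162 FPKM (log2 fold change −4.19 ± 0.26, edgeR adjusted p = 6.63e-08), and its counts were 5344 and 5081 in 5C and 243 and 358 in 5C-C. Col14a1 fell by −2.16 ± 0.23 (adjusted p = 1.04e-05), Col6a3 by −1.79 ± 0.19 (adjusted p = 9.08e-06), Col6a6 by −1.89 ± 0.37 (adjusted p = 0.00085), Col4a3 by −2.55 ± 0.80 (adjusted p = 0.0186) and Col11a1 by −1.07 ± 0.20 (adjusted p = 0.000718). Col5a3, the minor α3 chain of type V collagen, rose by 1.65 ± 0.38 (adjusted p = 0.00305), from 0.361 ± 0.0711 FPKM to 1.01 ± 0.0892 FPKM. Col3a1, at 0.99 ± 0.15 (adjusted p = 0.000153), was just short of the fold threshold. The median was 0.61 for fibrillar, −0.71 for basement membrane and 0.17 for other chains, beside 0.00 for all genes, and all 6 basement membrane values were below 0. With the GC and length offset Col8a1 was at −3.40 and Col14a1 at −1.62, both called, Col11a1 was at −0.17 and lost its call, as did Col4a3, and Col3a1 was called at 1.42. Col4a3 rests on 16 and 18 counts in 5C-C, and also lost its call without 5C B, without 5C-C A and without 5C-C B.

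Leaving out GSK429286A gave 3 calls of 37 in 5C-G against 5C (8.11%), each lower, against 13.1% of all genes (7.47% higher and 5.64% lower). Col8a1 fell from 20.7 ± 0.559 FPKM to 7.59 ± 3.89 FPKM (log2 fold change −1.35 ± 0.23, edgeR adjusted p = 0.000528). Col6a6 fell by −1.42 ± 0.36 (adjusted p = 0.0085) and Col6a5 by −3.21 ± 0.84 (adjusted p = 0.00999). Both are α chains of type VI filaments, and Col6a5 rests on few reads, with 109 and 84 counts in 5C and 20 and 0 in 5C-G. Col6a1 (−0.92 ± 0.15), Col18a1 (−0.82 ± 0.18), Col14a1 (0.93 ± 0.22) and Col15a1 (0.94 ± 0.21) were among the chains that had adjusted p below 0.05 without reaching the fold threshold, and 13 chains passed a threshold of 0.5 (35.1%), against 25.3% of all genes. The median was 0.21 for fibrillar, −0.09 for basement membrane and −0.17 for other chains, beside −0.01 for all genes. Without 5C-G A 8 chains were called, without 5C-G B 1, and without 5C B 5, so the count rests on single libraries. The fall of Col8a1 lost its call without 5C-G B (−0.96) and with the GC and length offset (−0.84), under which Col6a1 (lower) and Col14a1 (higher, at 1.35) were called instead. Col6a6 lost its call without 5C A and without 5C-G B.

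**Figure D4:**
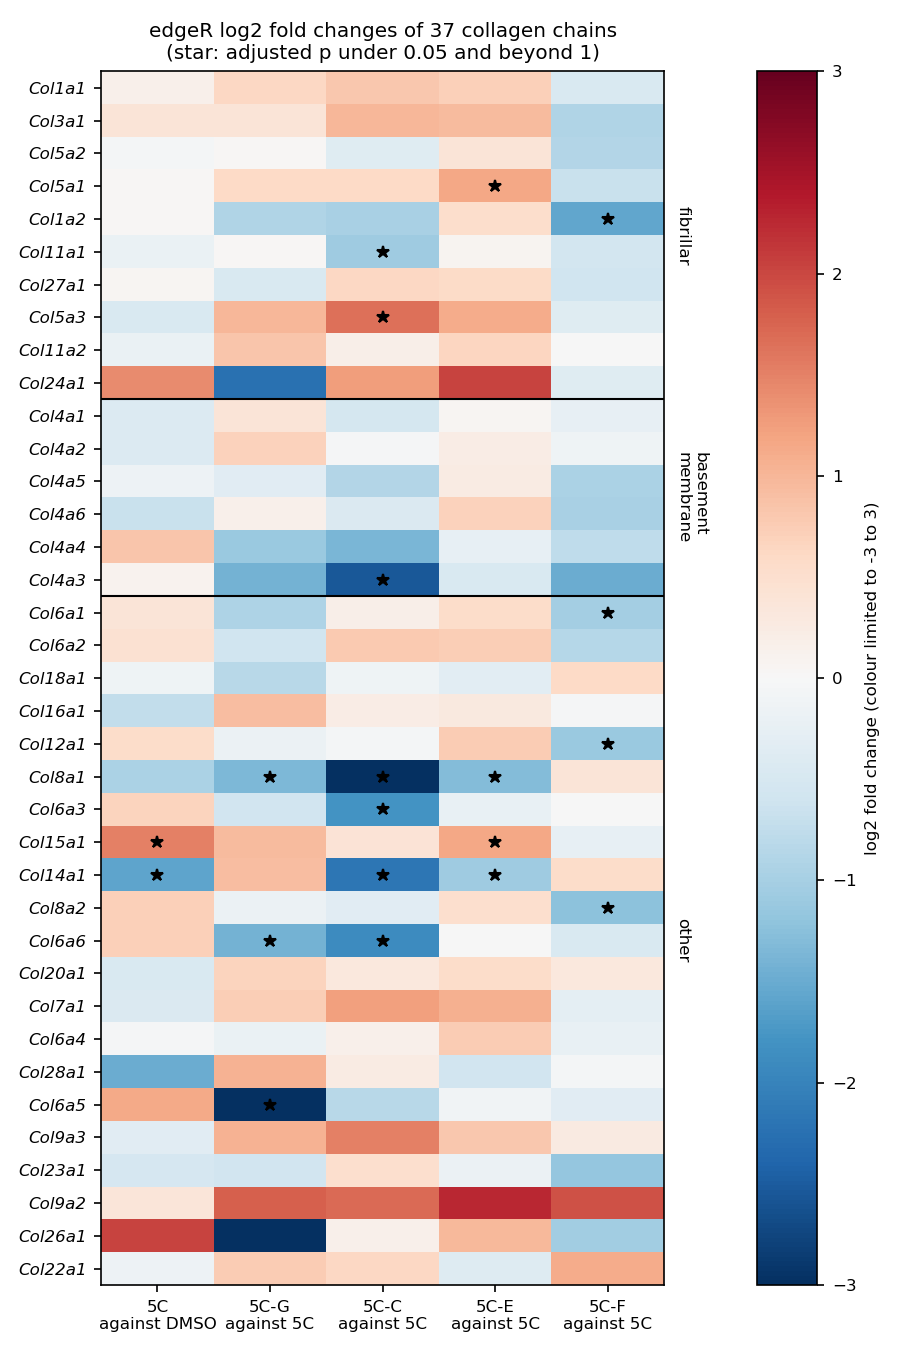
edgeR log2 fold change (colour, limited to −3 to 3) of 37 collagen chains (rows, by class and falling mean FPKM) in 5 comparisons (columns); stars mark called chains. The column of 5C-F against 5C is below 0 for all 10 fibrillar and all 6 basement membrane chains, and Col8a1 is starred in each of the other removals shown.

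Against DMSO, the removal groups were compared to set their levels beside the solvent. In 5C-E 8 of 37 chains were called (21.6%), 6 higher and 2 lower, against 6.09% of all genes (2.41% higher and 3.68% lower). The rises were Col15a1 (log2 fold change 2.67 ± 0.22), Col3a1 (1.33 ± 0.15), Col12a1 (1.31 ± 0.16), Col8a2 (1.21 ± 0.24), Col5a1 (1.20 ± 0.17) and Col6a2 (1.17 ± 0.19), and the falls Col14a1 (−2.63 ± 0.23) and Col8a1 (−2.25 ± 0.24). With the GC and length offset Col8a2, Col5a1 and Col6a2 lost their calls, and the fibrillar median was 0.26 in place of 0.65. The median of all genes was then −0.12 in place of 0.01. In 5C-C 12 chains were called (32.4%), 4 higher and 8 lower, against 22.1% of all genes (10.4% higher and 11.7% lower). The rises were Col15a1 (1.93 ± 0.22), Col3a1 (1.36 ± 0.15), Col6a2 (1.24 ± 0.19) and Col5a3 (1.20 ± 0.38). Col5a3 lost its call in 4 of the alternatives, among them leaving out DMSO A, DMSO B or 5C-C B. The largest falls were Col8a1 (−5.15 ± 0.27), Col14a1 (−3.73 ± 0.24), Col4a3 (−2.45 ± 0.80), Col11a1 (−1.27 ± 0.20) and Col6a6 (−1.17 ± 0.36). Without 5C-C B or without DMSO A the count was 7, as it was with the GC and length offset, under which Col4a3, Col11a1 and Col6a6 were among those lost.

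In 5C-F against DMSO 5 chains were called (13.5%), 1 higher and 4 lower, against 7.4% of all genes (3.18% higher and 4.22% lower). Col15a1 rose by 1.27 ± 0.22, and Col4a6 (−1.63 ± 0.21), Col1a2 (−1.51 ± 0.36), Col4a5 (−1.11 ± 0.22) and Col14a1 (−1.03 ± 0.22) fell. Col1a2 lost its call in 4 of the alternatives, among them leaving out DMSO A, 5C-F A or 5C-F B. Without DMSO A or without 5C-F A 3 chains were called, and with the GC and length offset Col4a5 and Col14a1 lost their calls. In 5C-G against DMSO 2 chains were called (5.41%), 1 higher and 1 lower, against 5.83% of all genes (3.11% higher and 2.72% lower): Col15a1 rose by 2.45 ± 0.22 and Col8a1 fell by −2.31 ± 0.24. With the GC and length offset 5 chains were called, with Col3a1, Col12a1 and Col18a1 gained. Without 5C-G A 7 chains were called. These comparisons share the DMSO libraries.

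The 5C-S library had no replicate, so it is described without a test. Its level lay above both 5C libraries for 20 of the 37 chains, below both for 10 and between them for 7. The same counts were not made over all genes, so they describe this library and are no result about collagen chains. Among chains with at least 1 FPKM in it, Col6a2 was furthest above, at 139 FPKM or 1.58 times the 5C mean, and Col8a1 furthest below, at 9.05 FPKM or 0.437 times the 5C mean. Col1a1 was at 1.36 times and Col1a2 at 0.905 times the 5C mean.

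Ratios between chains of one molecule were set side by side by library. Type I collagen is mostly built from 2 α1 chains and 1 α2 chain. The FPKM ratio of Col1a1 to Col1a2 was 11.8 and 13.9 in DMSO, 14.5 and 13.2 in 5C, and 14.7 and 16.9 in 5C-E. It was higher in the other removal groups, at 25.2 and 64.4 in 5C-G, 32.9 and 94.9 in 5C-C, 28.4 and 30.4 in 5C-F, and 20.8 in 5C-S. Library B stood apart from A in 5C-G and 5C-C. With the GC and length offset the ratio was 54.5 in 5C-G B and 76.2 in 5C-C B, and 13.5 and 15.6 in DMSO. The length behind the FPKM of Col1a2, as implied by counts and FPKM, was 12446 bases against 5359 bases for its canonical transcript in GENCODE M39, and that of Col1a1 was 6574 against 5930 bases. With counts divided by canonical length, an alternative chosen after the values were seen, the ratio was 5.65 and 6.64 in DMSO, 6.91 and 6.32 in 5C, 12.0 and 30.7 in 5C-G, 15.7 and 45.3 in 5C-C, 7.02 and 8.07 in 5C-E, and 13.6 and 14.5 in 5C-F. The level of the ratio thus depends on the length used, which scales all libraries alike.

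The ratio of Col4a1 to Col4a2 varied less, from 1.33 in 5C-C B to 2.09 in 5C-F A. That of Col6a1 to Col6a2 ran from 1.92 in 5C-C B to 3.34 in DMSO B. For Col6a3 to Col6a1 the ratio was 0.0257 and 0.0241 in DMSO, 0.0308 and 0.0293 in 5C, 0.00787 and 0.00752 in 5C-C, 0.0193 and 0.0158 in 5C-E, and 0.0608 and 0.0594 in 5C-F. The α3 chain was thus scarce beside α1 in every library, most of all in 5C-C. Col3a1 to Col1a1 was 0.454 and 0.453 in DMSO, 0.549 and 0.514 in 5C, 0.648 and 0.611 in 5C-E, 0.582 and 0.626 in 5C-C, 0.524 and 0.396 in 5C-G, 0.424 and 0.367 in 5C-F, and 0.534 in 5C-S. The 5C-C libraries overlapped those of 5C-E, and 5C-G B lay within the range of 5C-F. With the GC and length offset 5C-C was higher, at 0.707 and 0.829, than 5C-E, at 0.567 and 0.627. The length implied for Col3a1 was 9832 bases against 5564 bases for its canonical transcript. With canonical lengths the ratio of Col3a1 to Col1a1 was 0.723 in both DMSO libraries and 1.03 and 0.973 in 5C-E. An exact permutation test of a ratio with 2 libraries a group cannot reach 0.05, and no other test was made on ratios.

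**Figure D5:**
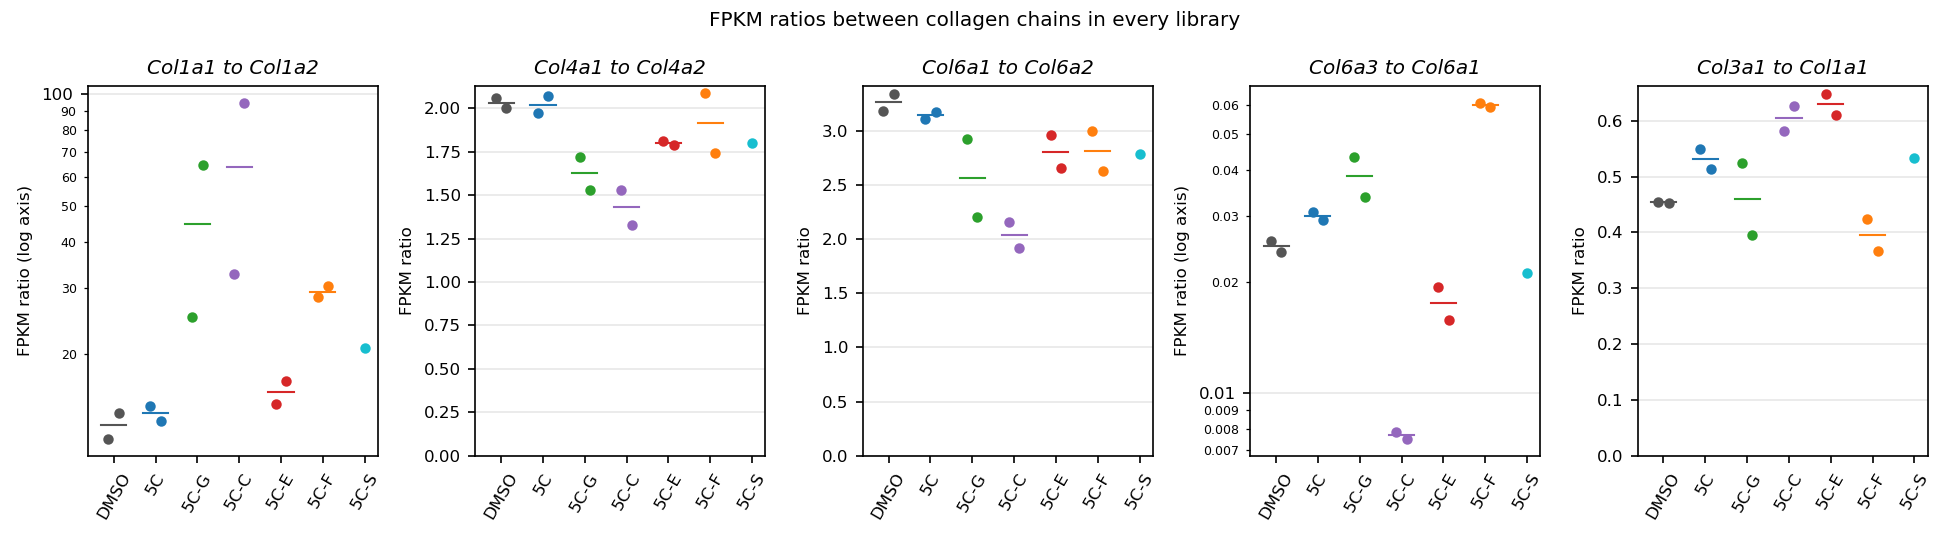
FPKM ratios between chains (vertical axes; logarithmic for Col1a1 to Col1a2 and Col6a3 to Col6a1) in 13 libraries by group (horizontal axes); points are libraries and lines group means. Col1a1 to Col1a2 spans 11.8 in DMSO A to 94.9 in 5C-C B, and Col6a3 to Col6a1 is lowest in 5C-C and highest in 5C-F.

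A list of 41 genes for collagen synthesis was examined beside the chains. It holds enzymes that hydroxylate proline and lysine, chaperones and export factors, proteases that remove propeptides, lysyl oxidases that crosslink fibrils, fibril-bound proteoglycans and receptors. In 5C against DMSO edgeR called 0 of 41 and DESeq2 called 1, and 8 had an unadjusted p under 0.05, near the 17.2% of all genes. In 5C-C against 5C 16 of 41 were called (39.0%, against the 20.2% of all genes), 12 higher and 4 lower, with a median of 0.41. The largest rises were P4ha2, a proline hydroxylase subunit, at 1.67 ± 0.18 (edgeR adjusted p = 1.0e-05) and Serpinh1, the collagen chaperone HSP47, at 1.45 ± 0.19. The largest falls were Tll1, a propeptide protease, at −2.61 ± 0.68 and P3h2, a prolyl 3-hydroxylase, at −2.30 ± 0.51. With the GC and length offset 8 of 41 were called, and Serpinh1, at 0.91, was not.

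In 5C-G against 5C 4 of 41 were called (9.76%, against 13.1% of all genes), 2 in each direction: Serpinh1 (1.13 ± 0.19) and Pcolce, which enhances propeptide removal (1.09 ± 0.23), rose, and Fmod, the proteoglycan fibromodulin (−2.88 ± 0.26), and Adamts3, a procollagen protease (−1.34 ± 0.33), fell. In 5C-E against 5C 3 were called (7.32%, against 1.96%): Bmp1, the procollagen C-proteinase (1.03 ± 0.20), and Serpinh1 (1.01 ± 0.19) rose and Fmod (−1.22 ± 0.24) fell. In 5C-F against 5C 4 were called (9.76%, against 4.84%): the lysyl oxidase Loxl4 (1.00 ± 0.28) rose, and Adamts3 (−1.63 ± 0.34), the collagen receptor Ddr2 (−1.37 ± 0.21) and Plod2 (−1.16 ± 0.20), the lysyl hydroxylase of collagen telopeptides, fell. Serpinh1 was at 251 ± 6.20 FPKM in 5C and at 209 ± 34.0 FPKM in 5C-F (SD, n = 2). It was higher in the other removals, at 613 ± 29.2 FPKM in 5C-C, 529 ± 104 FPKM in 5C-E and 496 ± 74.3 FPKM in 5C-G. In 5C-E against 5C-F 12 of 41 were called (29.3%, against 8.74%), 10 higher and 2 lower, against 7 with the GC and length offset and 19 without TMM factors. Under the offset the calls of Serpinh1 (0.78) and Pcolce (0.77) in 5C-G, of Bmp1 (0.54) and Serpinh1 (0.73) in 5C-E, and of Ddr2 (−0.89) and Plod2 (−0.78) in 5C-F were lost, and those of Fmod, Adamts3 and Loxl4 were kept.

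Markers of other liver cells moved between the groups as well. All 10 stellate cell and fibroblast markers (Pdgfrb, Pdgfra, Lrat, Rgs5, Des, Reln, Dpt, Thy1, Gli1 and Postn) were detected, and their summed level was 83.8 to 84.3 FPKM in DMSO, 79.3 to 79.6 in 5C, 121 to 149 in 5C-G, 65.4 to 65.9 in 5C-C, 97.4 to 101 in 5C-E, 65.3 to 66.5 in 5C-F and 86.1 in 5C-S. None of the 10 was at 0 throughout a group, and Gli1 was under 1 FPKM in every library. The high sum in 5C-G lay in Des, at 86.1 FPKM on average against 15.5 in 5C, and most called markers went the other way: 6 of the 10 were called in 5C-G against 5C, 2 higher and 4 lower (13.1% of all genes called). In 5C against DMSO 5 were called (3 higher and 2 lower), against 4.55% of all genes. In 5C-C against 5C 5 were called (1 higher and 4 lower), against 20.2% of all genes, and 1 with the GC and length offset. In 5C-E against 5C 2 were called (1 higher and 1 lower), against 1.96% of all genes, and 1 with the offset. In 5C-F against 5C edgeR and DESeq2 each called 0 of the 10, against 4.84% of all genes with edgeR. An unadjusted p under 0.05 was reached by 4 of the 10, against 26.0% of all genes. With the GC and length offset 3 were called. In 5C-E against 5C-F 2 of the 10 were called, against 8.74% of all genes: Lrat (−3.23) and Reln (−2.97), both lower in 5C-E. The 8 hepatocyte markers summed to 11200 to 12500 FPKM in DMSO, 11500 to 11600 in 5C, 7110 to 8500 in 5C-G, 4980 to 5300 in 5C-C, 3290 to 3840 in 5C-E, 17800 to 22300 in 5C-F and 7570 in 5C-S. The groups with the most and the least collagen, 5C-E and 5C-F, were thus those with the lowest and the highest hepatocyte sum.

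The 6 macrophage markers summed to 1280 to 1340 FPKM in DMSO, 123 to 128 in 5C, 1600 to 2560 in 5C-G, 387 to 694 in 5C-C, 229 to 300 in 5C-E, 379 to 619 in 5C-F and 187 in 5C-S. The 6 liver endothelial markers lay between 3.35 FPKM in 5C-G and 23.4 FPKM in 5C-E, almost all of it in Kdr, with Pecam1, Cdh5, Stab2, Tek and Erg under 1 FPKM in every library. The 5 cholangiocyte markers lay between 1460 FPKM in 5C-S and 3420 FPKM in 5C-F, most of it in Spp1 (group means of 1320 to 3090 FPKM). Epcam went against this sum, with 15.1 FPKM in 5C and 1.51 FPKM in DMSO. The part of cell makeup in the collagen results was not tested.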

How the data were processed

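RNA-seq libraries of dHeps were prepared with a NEBNext kit, per the labels, and sequenced as paired-end reads by a service provider; reads were mapped to GRCm39, and the submitters' processing notes name featureCounts, Subread and DESeq2. The deposited counts are whole numbers per gene, not normalized, and the deposited FPKM values are scaled by the authors to gene length and to the total of the library. Annotation release and strand handling are not given in the sources used here, so overlapping and antisense genes are uncertain. No column of per-sample values was left unused.

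From the counts, edgeR 4.0.16 in R 4.3.3 was run with TMM factors, filterByExpr by group (minimum count 10), glmQLFit and glmQLFTest on all 13 libraries in one fit of group means (19884 genes, common biological coefficient of variation 0.261, 6 residual degrees of freedom), in place of the DESeq named by the study. A gene was called at a Benjamini-Hochberg adjusted p under 0.05 over all genes and a log2 fold change beyond 1. The SE is the log2 fold change divided by the square root of the F statistic. The fit was tested on simulated data. DESeq2 1.42.0 and limma 3.58.1 on log2(FPKM + 1) and log2(FPKM + 0.1) were alternatives, as were total counts only, no filter, only the 2 groups compared, an offset per library for GC content and length, a fold threshold of 0.5 and leaving out each library. All 37 chains had a GC content and length in GENCODE M39 (GRCm39), from which gene positions also come. The offset took its GC content from there, but its length was the one implied by counts and FPKM.

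Named were 13 chains fixed by symbol in every library, with all chains called in a comparison if 10 or fewer and otherwise the 5 largest rises and 5 largest falls, and the 2 largest rises and falls of the synthesis list. Col8a1 is shown by library, Plod2 is named and 5C-F was set against 3 other removals after values had been seen. The members, classes and lists (collagen synthesis; markers of hepatocytes, stellate cells and fibroblasts, endothelial cells, cholangiocytes and macrophages) were chosen with earlier results of these data known.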

Additional observations from a re-analysis of the deposited data

Results flagged for a closer look

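Of the 4 removals with 2 libraries, a collagen chain was listed here where edgeR called the difference between a pair of removals, the chain was called against 5C in at least 1 of the pair, and its log2 fold changes against 5C had opposite signs. Each such contrast, given as a log2 difference between the first and the second group named, does not use the 5C libraries in its fold change, although the choice of chains does and the p comes from a spread estimated over all 13 libraries.

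For 5C-E against 5C-F the difference was 2.07 for Col1a2 (0.52 and −1.55 against 5C), 1.88 for Col12a1 (0.77 and −1.12), 1.82 for Col5a1 (1.16 and −0.66), 1.73 for Col8a2 (0.49 and −1.24), 1.58 for Col6a1 (0.56 and −1.02) and 1.39 for Col15a1 (1.15 and −0.24). It was −1.68 for Col8a1 (−1.29 and 0.39) and −1.60 for Col14a1 (−1.06 and 0.54). For 5C-C against 5C-F it was −4.57 for Col8a1, −2.70 for Col14a1, 2.02 for Col5a3 (1.65 and −0.37) and 1.19 for Col6a1 (0.17 and −1.02). For 5C-G against 5C-F it was −1.73 for Col8a1 (−1.35 and 0.39).

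For 5C-G against 5C-C the difference was 3.09 for Col14a1 (0.93 and −2.16) and 1.10 for Col11a1 (0.03 and −1.07). For 5C-G against 5C-E it was 1.98 for Col14a1, and for 5C-C against 5C-E it was −1.16 for Col11a1. With an offset per library for GC and length, 4 of these differences lost their call: Col15a1 for 5C-E against 5C-F (0.89), Col6a1 for 5C-C against 5C-F, and Col11a1 for 5C-G against 5C-C (0.81) and for 5C-C against 5C-E (−0.18). The edgeR adjusted p of these 17 differences ran from 2.42e-08 (Col8a1, 5C-C against 5C-F) to 0.00176 (Col5a3, 5C-C against 5C-F). With 2 libraries in a group, a gap between them can be described, but not which of the 2 is the unusual one.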

How the results depend on the processing

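No paired analysis was possible because the columns of the tables carry running numbers that cannot be matched to replicate numbers shared across groups. Over 85 named chain and comparison pairs, 581 of 662 values from alternatives that keep all libraries stayed called, 81 kept their direction without the call and 0 reversed. With 1 library left out, 277 of 340 stayed called, 63 lost the call and 0 reversed. The causes of the changes below were not tested.

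The count of chains called changed by more than 1.5 times as follows. With the GC and length offset it was 2 in 5C-E against 5C (4 before), 5 in 5C-G against DMSO (2 before) and 7 in 5C-C against DMSO (12 before). With no filter on low counts it was 4 in 5C-G against DMSO. With limma on log2(FPKM + 1) it was 3 in 5C-F against DMSO and 5 in 5C-G against 5C-F (5 and 10 before). With every gene on that scale it was 2 in 5C-F against 5C, 1 in 5C-F against DMSO and 5 in 5C-G against 5C-F. At a fold threshold of 0.5 it was 6 for 5C (6.34% of all genes passed), 7 for 5C-G (14.5% of all genes) and 15 for 5C-F (14.5%) against DMSO. Against 5C it was 11 without forskolin (10.7% of all genes), 8 without ETC-1002 (2.94%), 14 without CID755673 (35.1%) and 13 without GSK429286A (25.3%). With 1 library left out, counts ran from 1 to 8 in 5C-G against 5C, from 0 to 4 in 5C-E against 5C, from 1 to 5 in 5C-F against 5C, from 2 to 7 in 5C-G against DMSO, from 7 to 14 in 5C-C against DMSO and from 3 to 5 in 5C-F against DMSO. They ran from 6 to 10 in 5C-C against 5C, from 15 to 16 in 5C-E against 5C-F, from 11 to 13 in 5C-C against 5C-F and from 7 to 11 in 5C-G against 5C-F, and stayed at 2 in 5C against DMSO. Where a group kept 1 library, its spread was taken from the other groups.

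Without TMM factors the median of all genes in 5C-E against 5C-F moved from 0.01 to 0.18 on the log2 scale, the most of the 12 comparisons, and the fibrillar median there was 1.54 in place of 1.38. The 15 chains under 1 FPKM rest on few reads, and changes in them are weakly measured.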
